A study of Mus musculus with 6 samples.

Results

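The genes described here are the kinesins and the tubulins, the motors and the track of microtubule transport. Members were all probes named for a Kif gene with a number or for a gene whose symbol begins with Tuba or Tubb. They came to 73 of the 55681 probes on the array, for 53 of the 19897 named genes: 53 probes for 36 kinesins and 20 probes for 17 tubulins. Transcripts were measured on 6 single-colour Agilent arrays of spinal cord cells from E12.5 mouse embryos, which carried the Hb9::GFP transgene in every group. This reporter is driven by regulatory sequence of Hb9 (Mnx1), a motor neuron transcription factor gene, and cells were separated by flow cytometry into GFP-on (motor neuron) and GFP-off (all other cells). There were 2 GFP-on arrays and 1 GFP-off array labelled mir-17~92 -/-, a deletion of a microRNA cluster, and the same numbers labelled WT (wild type). How many embryos entered each sort is not given in the sources used here, so the p-values measure the spread between these arrays, which may be technical.

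Kinesins are ATP-driven motors, most of which walk toward the plus end of microtubules. In an axon the kinesin-1 (Kif5), kinesin-2 (Kif3) and kinesin-3 (Kif1) motors carry vesicles, organelles and protein complexes away from the cell body. Another set builds and moves the mitotic spindle and closes cytokinesis, and these genes are transcribed mainly in dividing cells. Tubulin genes encode the alpha and beta subunits of the microtubule, several of them (Tuba1a, Tubb2a, Tubb2b, Tubb3) being abundant in young neurons. Motor neurons leave the cell cycle as they are born, whereas the rest of the spinal cord at this age still holds dividing progenitors.

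Of the 73 probes, 66 (50 genes) were well above background on at least 2 arrays and were tested, and 44 were above background on all 6. These included 11 of 11 probes of the mitotic kinesins (10 genes), 12 of 13 of the axonal transport kinesins (8 genes) and 19 of 20 of the tubulins. The 7 probes left out were the probe of Tubal3, that of Kif27, that of Kif2b, 2 of the 4 probes of Kif9 and the dimmer probe of Kif3b and of Kif17. Kif14, a mitotic kinesin, had no matched probe and was not analysed here. Probe sequences were not used here, so signal shared among near-identical tubulins was not examined and their values are uncertain to that extent.

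The arrays were uneven. Their 75th percentile signal was 67.0, 51.0 and 65.8 on 3 of the GFP-on arrays, but 579 on the second knockout-labelled GFP-on array and 628 and 378 on the GFP-off arrays, so brightness moved with the fraction. The wild-type-labelled GFP-on arrays stood apart from the rest, the second most of all: across 19075 probes it correlated at 0.736 to 0.806 with every array but its replicate, against 0.930 to 0.984 among the knockout-labelled and GFP-off arrays. Slide row 1 held both knockout-labelled GFP-on arrays, and row 2 held all others, so genotype label and row cannot be told apart in GFP-on cells. Mir17hg, the host gene of the deleted cluster, gave log2 signals of 4.38, 4.59 and 4.43 on the knockout-labelled arrays, while the arrays labelled wild type, in the same order, gave -2.46, 2.70 and -1.39. Whether its probe falls inside the deletion is not known; if so, this order contradicts the labels, and groups are therefore named as labelled. Summed signal of 9 motor neuron marker probes, in multiples of the 75th percentile, was 30.3 and 35 on the knockout-labelled GFP-on arrays, 11.8 and 8.11 on the wild-type-labelled GFP-on arrays and 4.63 and 3.12 on the GFP-off arrays. Mnx1 itself had no matched probe. All 4 GFP-on arrays were above both GFP-off arrays in this sum, the wild-type-labelled ones by less.

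The first comparison set the 4 GFP-on arrays against the 2 GFP-off arrays, with genotype label as a covariate (differences are log2, GFP-on minus GFP-off, ± SE). Probes of axonal transport kinesins were mostly higher in GFP-on cells and probes of mitotic kinesins lower. The median difference was 1.31 over the 12 axonal transport probes, 10 of them above 0, and -1.19 over the 11 mitotic probes, 0 of them above 0, against -0.032 over all 33264 probes tested. No single member passed limma's adjusted threshold of 0.05: 0 of 66 were called where 0.673% of all probes were, 0.538% higher and 0.135% lower. Over probes above background on all 6 arrays 4 members were called (4.04% of all), and 11, 9 higher and 2 lower, when only arrays that share a tag in their descriptions were set against each other (9.86% of all). At an unadjusted p under 0.05 there were 22 of 66 members (33.3%), against 6174 of all probes (18.6%). In bulk samples of this kind fewer cells of a type and less RNA per cell cannot be told apart.

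Groups that do not overlap showed the same split. All 4 GFP-on arrays lay above both GFP-off arrays for 8 of the 12 axonal transport probes, where 10.0% of all probes did so, and for 0 of the 11 mitotic probes. The reverse order, all GFP-on arrays below both GFP-off arrays, held for 2 of 11 mitotic probes (14.0% of all probes) and for 0 of 12 axonal transport probes. The mitotic count was therefore close to the background, and the axonal transport count was above it. Every array's values are in the plot of the kinesins by array.

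**Figure D1:**
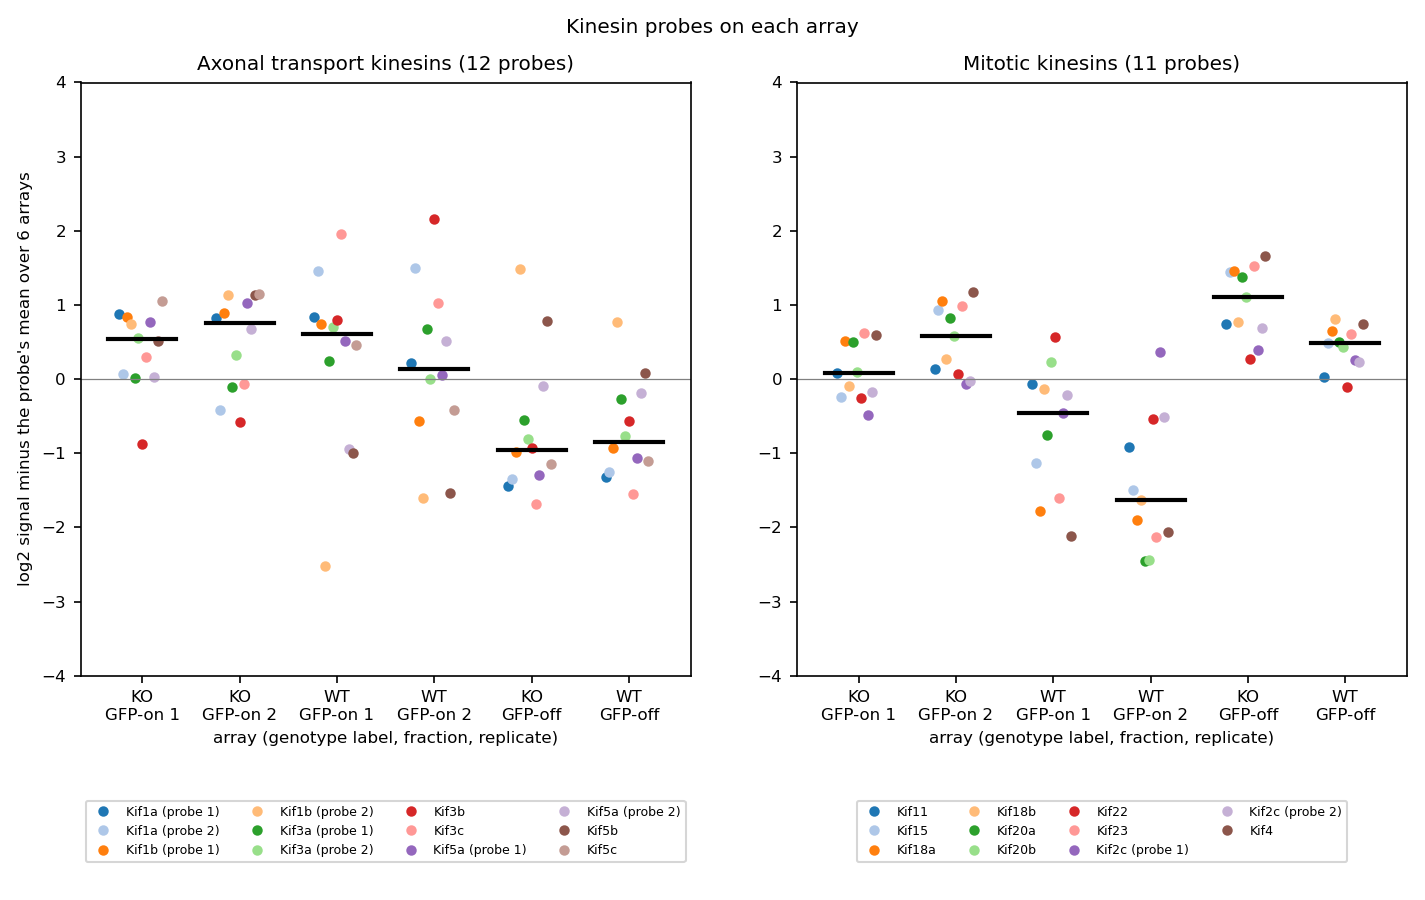
Log2 signal of each tested kinesin probe minus that probe's mean over the 6 arrays (y axis), by array (x axis), with 1 point per probe and a bar at the median; the panels hold the axonal transport and the mitotic kinesins. The axonal transport medians are above 0 on the 4 GFP-on arrays and below it on both GFP-off arrays, and the mitotic medians are lowest on the wild-type-labelled GFP-on arrays.

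Kif3c, Kif1a, Kif5a and Kif5c had the largest positive differences of the axonal transport kinesins, none past the threshold. Kif5a, the neuronal kinesin-1 heavy chain mutated in hereditary spastic paraplegia, gave 4.61 and 4.86 on the knockout-labelled GFP-on arrays, 4.35 and 3.90 on the wild-type-labelled GFP-on arrays, and 2.54 and 2.77 on the GFP-off arrays (knockout-labelled first). All 4 GFP-on arrays were above both GFP-off arrays, with a difference of 1.77 ± 0.46, adjusted p = 0.107 (n = 4 against 2). Kif5c, the other neuron-enriched heavy chain, gave 5.62 and 5.71 (GFP-on, knockout-labelled), 5.03 and 4.15 (GFP-on, wild-type-labelled), and 3.43 and 3.46 (GFP-off), again without overlap, a difference of 1.68 ± 0.50, adjusted p = 0.138. Its lowest GFP-on value was on the second wild-type-labelled array. Kif1a, which carries synaptic vesicle precursors and dense core vesicles, gave 4.81 and 4.75 (GFP-on, knockout-labelled), 4.76 and 4.15 (GFP-on, wild-type-labelled), and 2.49 and 2.60 (GFP-off) on its brighter probe. Neither of its probes overlapped between fractions. The brighter probe differed by 2.07 ± 0.45, adjusted p = 0.0717, and the dimmer probe by 1.96 ± 0.51, adjusted p = 0.107. A second, faint probe of Kif5a, above background on 3 arrays, differed by 0.21.

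Kif3c, a neuron-enriched kinesin-2 motor, gave 3.79 and 3.42 on the knockout-labelled GFP-on arrays, 5.45 and 4.51 on the wild-type-labelled GFP-on arrays, and 1.81 and 1.94 on the GFP-off arrays. Its GFP-on values did not overlap its GFP-off values, and its difference of 2.42 ± 0.51, adjusted p = 0.0688 had the smallest adjusted p among the members. Kif3a, the kinesin-2 subunit needed for cilia as well as axonal transport, was higher on all 4 GFP-on arrays on both probes, by 0.62 on the brighter and 1.19 on the dimmer, neither past the threshold. The brighter probe's sign turned under normexp background correction, a model-based subtraction of local background. Kif3b, which pairs with Kif3a, gave -1.97 and -1.68 (GFP-on, knockout-labelled), -0.30 and 1.07 (GFP-on, wild-type-labelled), and -2.03 and -1.67 (GFP-off). Only the wild-type-labelled GFP-on arrays stood above the GFP-off arrays there, and the difference was 1.13 ± 0.59, adjusted p = 0.333.

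Not every axonal transport motor was higher. Kif5b, the heavy chain expressed in most cell types, gave -0.54 and 0.078 (GFP-on, knockout-labelled), -2.06 and -2.59 (GFP-on, wild-type-labelled), and -0.27 and -0.97 (GFP-off), with both wild-type-labelled GFP-on values below background. It differed by -0.66 ± 0.51, adjusted p = 0.499, the sign turning under normexp background correction. Kif1b, a carrier of mitochondria and synaptic vesicle precursors, had probes that disagreed. The brighter one gave 4.87 and 4.92 (GFP-on, knockout-labelled), 4.78 and 3.47 (GFP-on, wild-type-labelled), and 3.06 and 3.11 (GFP-off) and a difference of 1.43 ± 0.52, adjusted p = 0.202. The dimmer one gave 0.098 and 0.49 (GFP-on, knockout-labelled), -3.17 and -2.24 (GFP-on, wild-type-labelled), and 0.84 and 0.12 (GFP-off) and a difference of -1.69 ± 0.60, adjusted p = 0.197. Over the members with several tested probes, 11 of 14 genes (78.6%) had probes of 1 sign in this comparison, against 63.5% of 3887 genes on the array.

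For the mitotic kinesins described first, the lowest GFP-on values were on the wild-type-labelled arrays. Kif4, a chromokinesin that also organises the central spindle, gave -0.84 and -0.27 on the knockout-labelled GFP-on arrays, -3.55 and -3.50 on the wild-type-labelled GFP-on arrays, and 0.22 and -0.70 on the GFP-off arrays. Its wild-type-labelled GFP-on values were not above background, and its knockout-labelled GFP-on values lay on either side of the wild-type-labelled GFP-off value. The difference was -1.80 ± 0.56, adjusted p = 0.152. Kif23, a subunit of the centralspindlin complex of cytokinesis, gave 0.52 and 0.88 (GFP-on, knockout-labelled), -1.71 and -2.23 (GFP-on, wild-type-labelled), and 1.43 and 0.50 (GFP-off), a difference of -1.60 ± 0.53, adjusted p = 0.173. Both knockout-labelled GFP-on values lay above the wild-type-labelled GFP-off value, so the groups overlapped. Kif20a, which moves the chromosomal passenger complex to the central spindle, gave 2.09 and 2.42 (GFP-on, knockout-labelled), 0.84 and -0.85 (GFP-on, wild-type-labelled), and 2.98 and 2.10 (GFP-off), a difference of -1.41 ± 0.59, adjusted p = 0.253. Its second knockout-labelled GFP-on value alone lay above the wild-type-labelled GFP-off value.

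Kif11, the bipolar kinesin that slides spindle microtubules apart, differed less. It gave 0.0030 and 0.062 (GFP-on, knockout-labelled), -0.13 and -0.99 (GFP-on, wild-type-labelled), and 0.67 and -0.049 (GFP-off), a difference of -0.57 ± 0.46, adjusted p = 0.513. Kif18a, which damps chromosome movements, differed by -1.58 ± 0.53, adjusted p = 0.177 and Kif15, a second spindle-sliding motor, by -1.45 ± 0.51, adjusted p = 0.189, both with wild-type-labelled GFP-on values below background. Kif18b, which shortens astral microtubules, was lower on all 4 GFP-on arrays than on both GFP-off arrays, differing by -1.19 ± 0.55, adjusted p = 0.284. Kif20b, needed for abscission, differed by -1.15 ± 0.71, adjusted p = 0.393, the depolymerase Kif2c by -0.49 and -0.69 on its probes, the dimmer one without overlap, and the chromokinesin Kif22 by -0.12. Under normexp background correction the signs of Kif18a and both Kif2c probes turned, and 8 of 11 mitotic probes stayed below 0 with a median of -0.48, where the median of all probes was 0.36. The mitotic median was -0.57 over the 5 probes above background on all 6 arrays, and -0.80 without the second wild-type-labelled GFP-on array, against 1.68 and 1.56 for the axonal transport probes.

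Promoters of the mitotic kinesins are shown because these genes lay on 1 side together. Promoters of late cell cycle genes often hold a cell cycle genes homology region (CHR), whose letters TTTGAA are bound by the DREAM and MuvB complexes, and CCAAT boxes bound by NF-Y. Both were searched on both strands in RefSeq windows (assembly GRCm38.p6) from 250 bases before to 50 bases after a start, and neither motif contains the other. TTTGAA was in 8 of 9 mitotic kinesin windows (88.9%), in 1 of 8 axonal transport windows and in 2 of 14 tubulin windows, against 17.9% of 32851 promoter windows. Within 50 bases of the start, a limit chosen after the positions were seen, it was in 77.8% of mitotic windows and 4.94% of all. CCAAT was in 5 of 9 mitotic and 4 of 8 axonal transport windows (37.4% of all). The latter came from 3 of 6 genes, since Kif1b had 2 overlapping windows with the same boxes. Both motifs were in 5 of 9 mitotic windows and 6.95% of all. Kif20a, Kif5a and Kif5b had no window. The Kif18a window held neither. A match describes letters only.

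The printed stretches run 5′ to 3′ from 170 bases before to 30 bases after the start, with TTTGAA and CCAAT, or their reverse complements TTCAAA and ATTGG, in capitals; 4 mitotic kinesins that held both motifs come first.
Kif11, chr19:37376212-37376411, plus strand: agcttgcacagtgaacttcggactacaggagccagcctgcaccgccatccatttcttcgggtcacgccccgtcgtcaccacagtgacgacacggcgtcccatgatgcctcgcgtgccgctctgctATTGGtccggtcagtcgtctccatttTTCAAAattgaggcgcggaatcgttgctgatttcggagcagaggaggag
Kif23, chr9:61946770-61946969, minus strand: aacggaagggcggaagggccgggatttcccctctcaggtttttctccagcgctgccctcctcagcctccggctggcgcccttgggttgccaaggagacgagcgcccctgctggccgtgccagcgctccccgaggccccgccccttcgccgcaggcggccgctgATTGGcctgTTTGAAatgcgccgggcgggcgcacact
Kif4, chrX:100625895-100626094, plus strand: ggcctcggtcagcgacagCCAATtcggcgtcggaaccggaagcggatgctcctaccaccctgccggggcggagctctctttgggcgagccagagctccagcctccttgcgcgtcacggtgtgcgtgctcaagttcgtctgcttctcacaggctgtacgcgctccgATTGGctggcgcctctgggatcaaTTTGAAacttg
Kif18b, chr11:102925095-102925294, minus strand: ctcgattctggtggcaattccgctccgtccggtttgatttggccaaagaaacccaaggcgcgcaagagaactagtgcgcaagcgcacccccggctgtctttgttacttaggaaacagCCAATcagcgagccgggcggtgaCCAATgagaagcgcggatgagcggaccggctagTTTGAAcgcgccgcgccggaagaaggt
The next stretches are those of the neuronal motors Kif3c and Kif5c, whose full windows held neither motif.
Kif3c, chr12:3364962-3365161, plus strand: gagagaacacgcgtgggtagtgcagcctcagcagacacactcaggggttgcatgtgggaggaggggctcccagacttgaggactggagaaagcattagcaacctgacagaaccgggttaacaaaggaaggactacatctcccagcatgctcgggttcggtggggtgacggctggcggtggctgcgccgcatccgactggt
Kif5c, chr2:49619116-49619315, plus strand: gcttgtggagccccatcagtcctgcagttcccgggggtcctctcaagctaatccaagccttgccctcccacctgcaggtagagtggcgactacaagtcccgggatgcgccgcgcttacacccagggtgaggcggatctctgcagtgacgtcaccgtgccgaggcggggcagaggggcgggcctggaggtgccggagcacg

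In Kif11 the CHR lay 19 bases before the start with a CCAAT box 45 bases before it. In Kif18b, Kif23 and Kif4 the CHR began at positions 4, 3 and 20 counted from the start as 1, each with a CCAAT box within 53 bases upstream of the start. Median GC content was 60.7% in the mitotic and 60.8% in the axonal transport windows, against 52.7% in all windows.

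Within each genotype label the contrast was described over 2 GFP-on arrays and 1 GFP-off array. Among knockout-labelled arrays, both GFP-on values were below the GFP-off value for 11 of 11 mitotic probes (44.7% of all probes), with a median difference of -0.72. Among wild-type-labelled arrays this held for 9 of 11 (35.4% of all), with a median of -1.69. Both GFP-on values were above the GFP-off value for 10 of 12 axonal transport probes among knockout-labelled arrays (28.6% of all) and for 9 of 12 among wild-type-labelled ones (42.3% of all). The axonal transport medians were 1.21 and 1.13. The interaction of fraction and label was past limma's threshold for 0 of 66 members and 0% of all probes; at an unadjusted p under 0.05 there were 5 members and 2818 of all probes (8.47%).

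**Figure D2:**
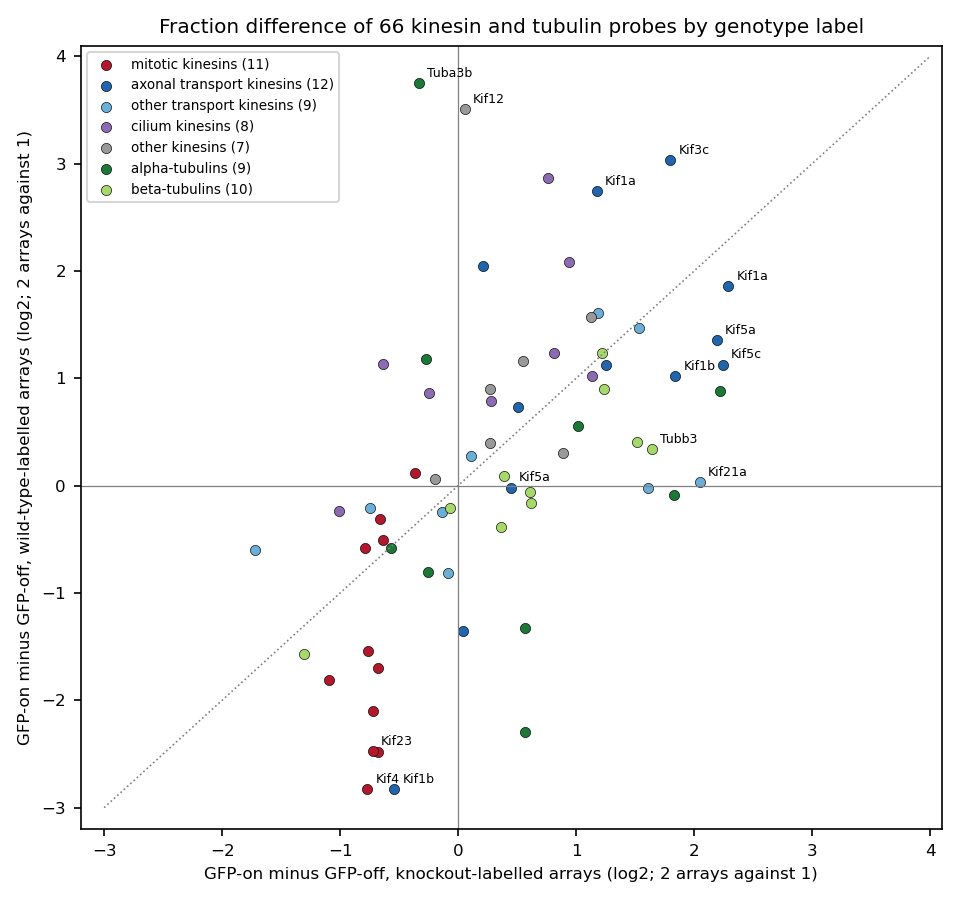
GFP-on minus GFP-off log2 difference of the 66 tested kinesin and tubulin probes within knockout-labelled arrays (x axis) and within wild-type-labelled arrays (y axis), 1 point per probe, coloured by role. Mitotic probes lie left of 0 on the x axis for 11 of 11 probes, and most axonal transport probes lie above 0 on both axes; the dotted line marks equal differences.

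Of the other transport kinesins, Kif21b, a regulator of neuronal microtubule dynamics and dendritic transport, gave 4.86 and 5.22 on the knockout-labelled GFP-on arrays, 5.60 and 4.84 on the wild-type-labelled GFP-on arrays, and 3.51 and 3.75 on the GFP-off arrays. The groups did not overlap and differed by 1.50 ± 0.46, adjusted p = 0.149. Kif17, a dendritic motor for NMDA receptor subunits, differed by 1.40 ± 0.59, adjusted p = 0.251, and Kif21a, which restrains microtubule growth at the cell cortex, by 1.04 ± 0.56, adjusted p = 0.339. Over the 9 probes tested the median was 0.19, 5 above 0. The cilium kinesins had a median of 0.78 with 7 of 8 tested probes above 0, and the remaining kinesins 0.60 with 6 of 7. These are faint: the brighter probe of Kif6, a kinesin of motile cilia, differed most in the cilium list, by 1.81 ± 0.62, adjusted p = 0.183, and Kif12 most among the rest, by 1.78 ± 0.91, adjusted p = 0.32. Kif2a, a depolymerase that limits axon branching, was above both GFP-off arrays on all GFP-on arrays on 3 of 3 probes, by 0.58, 0.33 and 0.86; it was singled out after its values were seen. The probes of Kif1c, Kif13a, Kif13b and Kif16b ran from -1.16 to 0.79. In the cilium list 3 of 8 tested probes were not above background on every array.

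The tubulin median lay nearer 0 than that of either kinesin set. It was 0.27, 12 of 19 probes above 0; it was 0.45 for alpha-tubulin probes (5 of 9) and 0.26 for beta-tubulin probes (7 of 10). On 4 of 19 probes all GFP-on arrays were above both GFP-off arrays (10.0% of all probes) and on 2 they were all below (14.0% of all). Within knockout-labelled arrays the tubulin median was 0.57 and within wild-type-labelled arrays -0.061. Leaving out the knockout-labelled GFP-off array gives the same estimate as the wild-type-labelled arrays alone and is no separate check. No direction for the tubulins as a set is therefore given. The difference between tubulins and kinesins was not tested.

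The 4 tubulin probes with higher, non-overlapping GFP-on values were of the neuronal isotypes Tuba1a, Tubb2b and Tubb3. Tubb3, the class III beta-tubulin used as a neuron marker, gave 6.94 and 6.73 on the knockout-labelled GFP-on arrays, 6.31 and 5.86 on the wild-type-labelled GFP-on arrays, and 5.19 and 5.75 on the GFP-off arrays. All GFP-on values were above both GFP-off values, the second wild-type-labelled GFP-on array only slightly, and the difference was 0.99 ± 0.49, adjusted p = 0.304. Tubb2b, mutated in polymicrogyria, gave 8.20 and 8.08 (GFP-on, knockout-labelled), 8.18 and 8.28 (GFP-on, wild-type-labelled), and 6.91 and 7.33 (GFP-off) on its brighter probe, a difference of 1.07 ± 0.43, adjusted p = 0.238, and 1.23 on the dimmer, neither with overlap. Tubb2a differed by 0.96 ± 0.49, adjusted p = 0.316. Tuba1a, the main alpha-tubulin of migrating neurons and mutated in lissencephaly, gave 9.20 and 8.57 (GFP-on, knockout-labelled), 9.38 and 8.31 (GFP-on, wild-type-labelled), and 7.87 and 8.29 (GFP-off), the GFP-on arrays all above the GFP-off arrays, and differed by 0.79 ± 0.50, adjusted p = 0.407.

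The other tubulins differed in both directions. Tubb5 differed by 0.27 ± 0.46, adjusted p = 0.773, its sign turning under normexp, and Tubb4b by -0.14 ± 0.43, adjusted p = 0.886, without overlap. Tubb6 gave 2.98 and 3.79 (GFP-on, knockout-labelled), 2.91 and 1.39 (GFP-on, wild-type-labelled), and 4.70 and 3.72 (GFP-off), a difference of -1.44 ± 0.55, adjusted p = 0.22, its lowest value being on the second wild-type-labelled GFP-on array. Tuba1b differed by -0.53 on its brighter probe, without overlap, and -0.86 on its dimmer probe, and Tuba1c differed by -0.57, Tuba4a by -0.38 and Tubb4a by -0.014, whose sign turned under quantile normalization. Tuba3a, best known from testis, differed by 1.55 and 0.87 on its probes and Tuba3b by 1.71 ± 0.81, adjusted p = 0.294. Tuba8, Tubb1 and the pseudogene Tubb2a-ps2 differed by 0.45, 0.24 and 0.23. None of these differences passed the threshold.

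**Figure D3:**
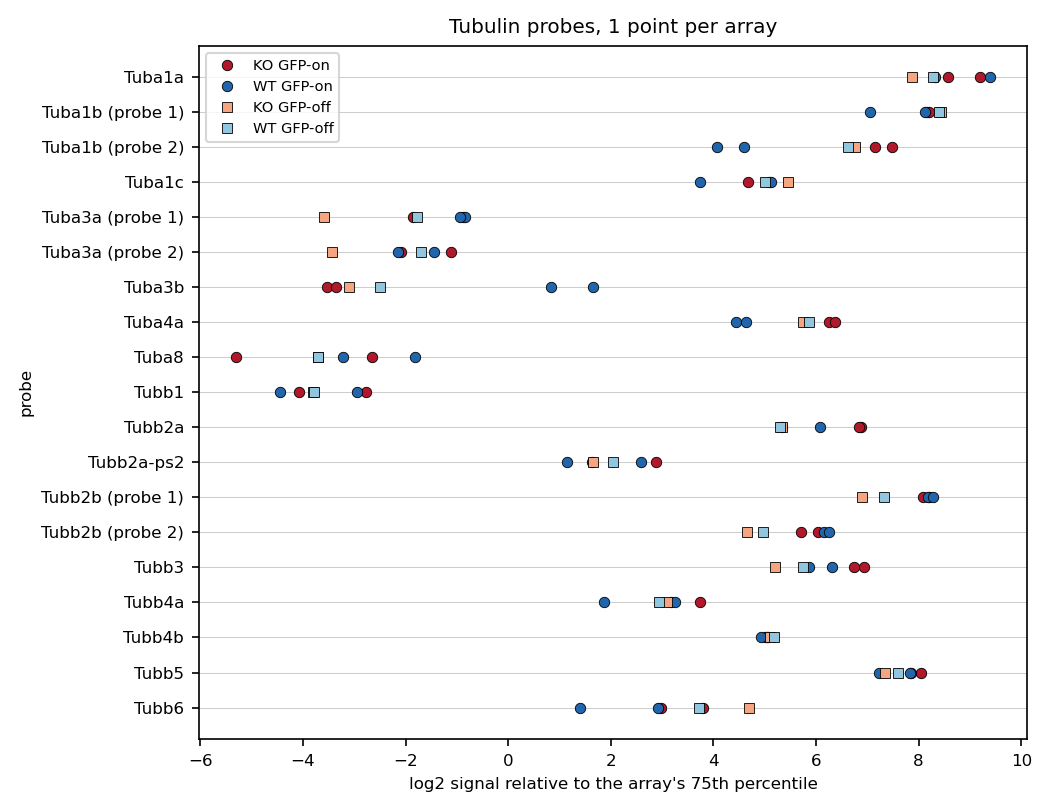
Log2 signal of the tested tubulin probes relative to each array's 75th percentile (x axis), 1 point per array and 1 row per probe (y axis), coloured by group. For Tubb3, Tuba1a and both Tubb2b probes the 4 GFP-on points lie above both GFP-off points; for Tuba3b the wild-type-labelled GFP-on points stand far above the other 4.

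Partners of both kinesin sets were examined from lists of known complexes. Of the spindle and cytokinesis partners, 25 of 26 probes (18 genes) were tested. Their median difference was -0.52, 2 above 0, and limma called 0 in either direction. The 21 probes of transport partners had a median of 0.24 with 13 above 0 and 0 called. Neuronal microtubule genes gave 32 probes with a median of 1.14, 26 above 0. Of the 32, 3 probes of 2 genes were called higher (0.538% of all probes) and 0 lower (0.135%). They were 2 probes of Mapt, the axonal microtubule protein tau, at 3.27 (adjusted p = 0.0345) and 3.03 (adjusted p = 0.0364), and 1 of Map1b, a microtubule protein of growing axons, at 2.89 (adjusted p = 0.0418).

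Dividing cell markers followed the mitotic kinesins across arrays, whereas postmitotic neuron markers shared only the step between fractions with the axonal transport kinesins. Each list's level on an array is given as the median, over its probes, of the log2 signal minus the probe's mean. For mitotic kinesins this was 0.076 and 0.59 on the knockout-labelled GFP-on arrays, -0.46 and -1.63 on the wild-type-labelled GFP-on arrays and 1.10 and 0.49 on the GFP-off arrays. For 12 dividing cell marker probes it was 0.035, 0.58, -0.21, -1.46, 1.05 and 0.39 in the same order, the same ranking of arrays as the mitotic kinesins. For axonal transport kinesins it was 0.54, 0.75, 0.61, 0.14, -0.96 and -0.85, and for 10 postmitotic neuron marker probes 0.71, 0.84, 0.44, 1.06, -1.49 and -1.11, both low on the GFP-off arrays alone. Among GFP-on arrays their order differed: on the second wild-type-labelled one the axonal transport median was lowest and the neuron marker median highest. Dividing cell markers had a median GFP-on minus GFP-off difference of -1.06, 1 of 12 above 0 and 0 called. Summed signal of these markers was 67.9, 87.6, 58.9, 46.6, 120 and 82.1 multiples of the 75th percentile, so none of the GFP-on arrays was without them. On the second wild-type-labelled GFP-on array the sum leaned on 1 Mki67 probe, which was highest there at log2 4.89. The other Mki67 probe gave 1.86 on that array.

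Markers of some other cells differed between the fractions as well. Of 7 erythroid marker probes 4 were called lower in GFP-on cells (0.135% of all probes), with summed signals of 278 to 648 against 1491 and 1625. Of 4 neural crest and glia marker probes 2 were called higher (0.538% of all probes), those of Foxd3 and Sox10. The median over the 4 was 3.08, all 4 above 0. Of 6 mesenchyme marker probes 0 were called, with a median of -1.16 and 0 above 0, and on 6 of 6 all GFP-on arrays were below both GFP-off arrays (14.0% of all probes). Neural progenitor markers had a median of -0.029, with 3 of 6 probes above 0 and 0 called. Their median was 0.385 within knockout-labelled and -1.27 within wild-type-labelled arrays. Endothelium markers had a median of 0.070 (3 of 5 above 0) and microglia and macrophage markers -0.35 (2 of 8 above 0), with 0 called in both lists. The part of any of these cells in the kinesin and tubulin differences was not tested.

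**Figure D4:**
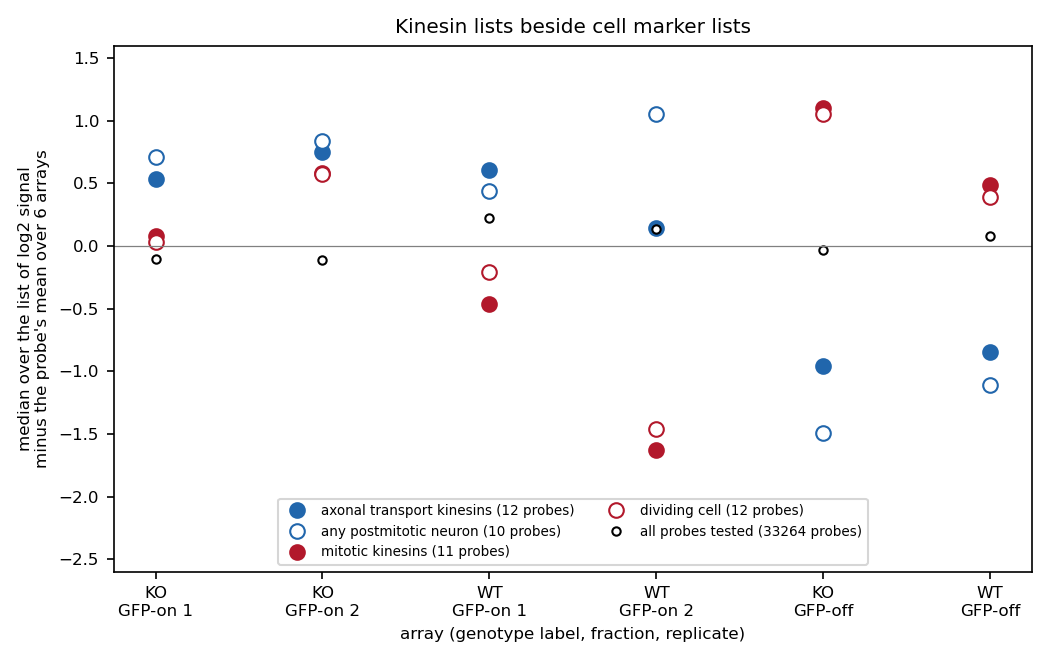
Median, over the probes of a list, of the log2 signal minus the probe's mean (y axis) on each of the 6 arrays (x axis), 1 point per list, with all probes tested as small open points. Mitotic kinesins and dividing cell markers are lowest on the second wild-type-labelled GFP-on array and highest on the knockout-labelled GFP-off array; axonal transport kinesins and postmitotic neuron markers are low on both GFP-off arrays.

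The second comparison, knockout-labelled against wild-type-labelled GFP-on cells, sets motor neurons labelled as lacking the cluster against those labelled as having it (differences are log2, knockout-labelled minus wild-type-labelled, n = 2 against 2). Of the 66 members 15 were called (22.7%), 9 higher and 6 lower, where 24.2% of all probes were called, 8.95% higher and 15.3% lower. The members' share was near this background. Among the 11 mitotic kinesin probes 4 were called higher and 0 lower, with a median of 1.45 and 9 above 0. The median was 0.59 over the 5 probes above background on all 6 arrays and 0.39 over the 11 under normexp background correction, where the median of all probes was -0.45. The axonal transport probes had 2 called each way and a median of 0.45, and all probes a median of -0.32. Without the second wild-type-labelled GFP-on array limma called 0 members, with 0% of all probes called, and without the second knockout-labelled GFP-on array 1.

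The 4 mitotic kinesins called were Kif4, Kif18a, Kif20a and Kif23. Kif4 (values above) was not above background on the wild-type-labelled GFP-on arrays and was at least 3.25-fold higher on the knockout-labelled ones (adjusted p = 0.0169). Such a bound sets the bright group against the lowest signal counted as well above background on each dim array, or the probe's own signal where higher. Kif18a gave -1.87 and -1.33 on the knockout-labelled GFP-on arrays against -4.17 and -4.29 on the wild-type-labelled ones, at least 1.57-fold higher (adjusted p = 0.0192). Kif23 differed by 2.68 ± 0.50, adjusted p = 0.0191, with 1 wild-type-labelled GFP-on value below background. Kif20a differed by 2.26 ± 0.65, adjusted p = 0.0414. Kif20b (1.45 ± 0.84, adjusted p = 0.224), Kif15 (at least 1.4-fold, adjusted p = 0.0661) and Kif11 (0.59 ± 0.52, adjusted p = 0.42) did not pass.

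Beside the mitotic kinesins, spindle and cytokinesis partners had 5 of 25 probes called higher and 0 lower. Their share of 20% was below the 24.2% of all probes called (8.95% higher, 15.3% lower), the background for the counts below as well. Among them were Nuf2, a kinetochore subunit, at least 3.27-fold higher, and Bub1b, a spindle checkpoint kinase, at least 4.78-fold higher (adjusted p = 0.0162 and 0.0177, limma), both not above background on the wild-type-labelled GFP-on arrays. Dividing cell markers had a median of 1.36, 9 of 12 above 0, with 1 called higher (Top2a) and 1 lower (a probe of Ccnb1). Of 6 neural progenitor marker probes 3 were called higher, with summed signals of 103 and 117 on the knockout-labelled and 59.4 and 31.9 on the wild-type-labelled GFP-on arrays. Of 9 motor neuron marker probes 3 were called higher, with a median of 0.38 and 7 above 0. Of 8 microglia and macrophage marker probes 4 were called higher, with a median of 1.17 and 7 above 0, and in GFP-off cells their median was 1.03 higher on the knockout-labelled array. Their summed signals were 15.2 and 15.1 on the knockout-labelled and 8.40 and 13.3 on the wild-type-labelled GFP-on arrays. In GFP-off cells, with 1 array per label and no test, 10 of 11 mitotic probes were higher on the knockout-labelled array (44.1% of all probes), by a median of 0.72, against -0.070 over all probes. The same median was -0.072 for axonal transport probes and -0.12 for tubulins. The part of dividing cells, or of any of the other cells, in these differences was not tested.

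Called changes in the transport kinesins ran both ways and differed between the probes of Kif1a and of Kif1b. Kif5b was at least 3.9-fold higher in knockout-labelled GFP-on cells (adjusted p = 0.0304). The dimmer probe of Kif1b was at least 5.67-fold higher (adjusted p = 0.0183), while its brighter probe differed by 0.77 ± 0.58, adjusted p = 0.348. Kif3b differed by -2.21 ± 0.60, adjusted p = 0.0362, and the dimmer probe of Kif1a by -1.66 ± 0.49, adjusted p = 0.0458, its brighter probe differing by 0.32 ± 0.50, adjusted p = 0.656. Kif21a, the single called probe of the other transport kinesins, gave 3.43 and 2.80 on the knockout-labelled GFP-on arrays against 1.54 and 1.33 on the wild-type-labelled ones, a difference of 1.68 ± 0.51, adjusted p = 0.0476. Kif5a, Kif5c and Kif3c did not pass, at 0.61, 1.08 and -1.37.

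Cilium kinesins lay on the other side, with 0 of 8 tested probes above 0, a median of -1.02 and 2 called lower. The dimmer probe of Kif7, a ciliary regulator of Hedgehog signalling, gave -4.96 and -5.06 on the knockout-labelled GFP-on arrays against -2.06 and -0.997 on the wild-type-labelled ones (adjusted p = 0.0164), but only the last of these was above background, so no fold is given. Its brighter probe differed by -0.94 ± 0.57, adjusted p = 0.249. The brighter probe of Kif6 differed by -2.73 ± 0.60, adjusted p = 0.0243. Kif12 gave -5.03 and -4.12 on the knockout-labelled GFP-on arrays against -2.13 and 0.54 on the wild-type-labelled ones, a difference of -3.78 ± 0.86, adjusted p = 0.0258; the first value of each pair was not above background. Several of these probes are faint, and under array median scaling the probes of Kif9 turned in sign.

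Of the tubulins 3 of 19 probes were called (15.8%), all alpha-tubulins, a share below the 24.2% of all probes. Tuba3b gave -3.53 and -3.35 on the knockout-labelled GFP-on arrays against 0.84 and 1.66 on the wild-type-labelled ones, with GFP-off values of -3.10 and -2.50. The wild-type-labelled GFP-on arrays stood apart from the other 4, and the difference of -4.69 ± 0.52, adjusted p = 0.0157 had the smallest adjusted p of the members. The dimmer probe of Tuba1b differed by 2.99 ± 0.50, adjusted p = 0.0171, with both wild-type-labelled GFP-on values below the other 4 arrays, whereas the brighter probe differed by 0.60 ± 0.55, adjusted p = 0.434. Tuba4a, an alpha-tubulin of mature neurons mutated in amyotrophic lateral sclerosis, gave 6.25 and 6.37 on the knockout-labelled GFP-on arrays against 4.43 and 4.63 on the wild-type-labelled ones, a difference of 1.78 ± 0.48, adjusted p = 0.0366. None of 10 beta-tubulin probes was called, Tubb3 differing by 0.75 ± 0.49, adjusted p = 0.283 and the brighter probe of Tubb2b by -0.091 ± 0.48, adjusted p = 0.901, whose sign turned under 4 other scalings or sources.

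**Figure D5:**
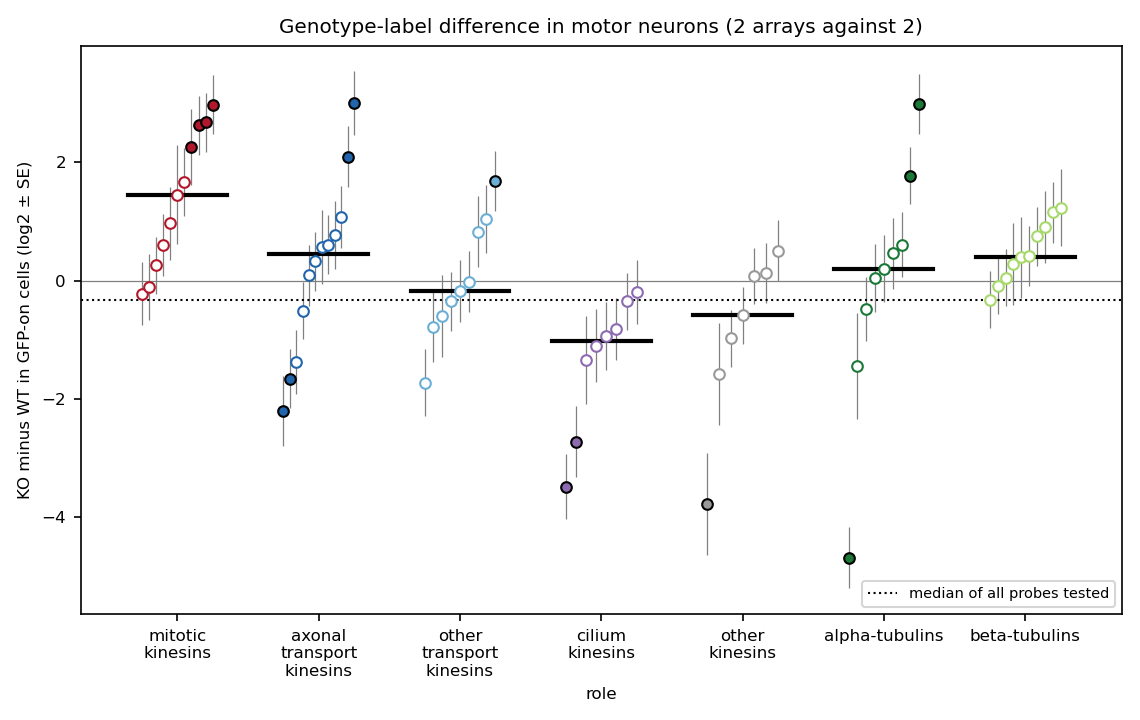
Knockout-labelled minus wild-type-labelled log2 difference in GFP-on cells with its SE (y axis) for the 66 tested probes, grouped by role (x axis); filled points passed limma's adjusted threshold of 0.05, bars are medians of a role, and the dotted line is the median of all probes tested (-0.32). The 4 filled mitotic points lie above 0, and the filled axonal transport and alpha-tubulin points lie on both sides.

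The direction of calls in this comparison moved with the scaling. The median of all probes moved from -0.32 to 0.44 when arrays were scaled on their median and to 0.055 under quantile normalization. The share of called probes that were higher went from 36.9% to 73.9% and 80.1%, to 67.7% under normexp and to 63.3% with 1 probe per gene. Among members, 9 higher and 6 lower became 17 higher and 4 lower under median scaling, where 29.6% of all probes were called. Relative to the median of all probes, the mitotic median lay higher and the cilium median lower in the values reported. Members with several probes gave 1 sign in 8 of 14 genes (57.1%), against 48.2% of 3887 genes.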

How the data were processed

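Cy3-labelled RNA of 6 sorted cell samples was measured on 1-colour Agilent arrays, all on 1 slide. The scanner software was Feature Extraction, version 10.5.1.1 per the file headers and 9.1 per the submitters' processing notes. The deposited processed signal is an intensity that is background-subtracted and detrended within an array, per the file headers, with no scaling between arrays. The authors' value table, on a log2 scale, equals log2 of that signal minus a constant per array within 0.01 for 99.7% to 99.9% of probes, with column medians of -2.79 to -3.66 and no centring of genes; it served as an alternative. No spot was saturated.

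Signals of unflagged spots were averaged per probe and converted to log2, and the log2 75th percentile of the array was subtracted. Gene symbols came from matching each probe's RefSeq accession to RefSeq genes of GRCm38.p6, since the files give none (26300 of 55681 named). Probes well above background on at least 2 of 6 arrays entered the fits (33264 of them), made in R 4.3.3 using limma 3.58.1 with Benjamini-Hochberg adjustment over all of them, at 0.05. The fraction effect came from an additive model of genotype label and fraction (3 residual degrees of freedom), the label effect in GFP-on cells and the interaction from 4 group means (2 residual degrees of freedom), where each single GFP-off array was assumed to vary like the GFP-on groups. The number of arrays limits the precision.

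Titles number the GFP-on replicates, and the numbers were not shown to pair: deviations from the group means correlated at -0.22 across probes. Members, gene lists and the naming rule (every mitotic kinesin, axonal transport kinesin and tubulin, and of the rest the called or most different) were chosen with earlier results of these data known. Alternatives were other scalings, background correction, filters, probe choices, the authors' table, models, pairings and leaving out arrays. The steps were tested on simulated data.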

Additional observations from a re-analysis of the deposited data

How the results depend on the processing

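For GFP-on against GFP-off, 0 members were called as reported. The count was 4 over probes above background on all 6 arrays (Kif3c, Kif5a and both Kif1a probes), 2 with the brightest probe per gene, 1 with the replicate block, 1 on slide row 2 only (Tuba3b), 1 on wild-type-labelled arrays only, 11 on the tagged pairs only (9 higher, 2 lower) and 0 to 2 when arrays were left out in turn, 2 being without the second knockout-labelled GFP-on array. Percentages of all probes called were 4.04, 2.41, 2.28, 2.54, 2.54 and 9.86 in the first 6 of these. The tagged pairs are the arrays that share a tag in their descriptions, whose meaning is not stated. Slide row 2 only and wild-type-labelled arrays only gave the same fit, because the genotype covariate sets the lone knockout-labelled array aside. For knockout-labelled against wild-type-labelled GFP-on cells, 15 members (9 higher, 6 lower) became 21 under array median scaling (17 higher, 4 lower), 6 under quantile normalization, 4 under normexp, 7 over probes above background on all 6 arrays, 0 with no filter (12034 probes at an unadjusted p under 0.05), 0 in the additive model (11385 probes) and 0 to 16 when arrays were left out in turn, with 0 without the second wild-type-labelled and 1 without the second knockout-labelled GFP-on array. Of all probes, 29.6% were called under array median scaling, 5.91% under quantile normalization and 4% under normexp. The share was 32.3% over probes above background on all 6 arrays (44 members), and 0% with no filter and in the additive model. Leaving out a GFP-off array cannot change this contrast, so those runs are no check. The replicate block gave 14 (29.2% of all probes). The crossed pairing gave 17 (36.7%) and was chosen after seeing the data, like the analyses of each label alone. The interaction stayed at 0 members under every alternative run, the replicate block included; it could not be fitted without a GFP-off array.

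The mitotic median was -0.48 under normexp and -1.70 to -0.72 when arrays were left out. The axonal transport median was 1.02 under normexp, 0.67 above the median of all probes (0.36), against 1.34 above it as reported. It was 1.68 over probes above background on all 6 arrays, 1.58 with the replicate block and 1.58 on the tagged pairs. When arrays were left out it ranged from 1.12 to 1.56. Under normexp the tubulin median was 0.17, below that of all probes, with 8 of 19 probes above the latter. The tubulin median moved to 0.079 under array median scaling, 0.47 with the replicate block, 0.47 on the tagged pairs and 0.57 on knockout-labelled arrays only. It turned to -0.061 on slide row 2 only, on wild-type-labelled arrays only and without the knockout-labelled GFP-off array. These are the same estimate, wild-type-labelled GFP-on minus GFP-off, and not separate checks. The replicate block and the tagged pairs likewise share their estimates of the fraction difference. When arrays were left out the tubulin median ranged from -0.061 to 0.58. Array median scaling subtracts another constant per array and so moved every probe's difference alike. The median of all probes went from -0.032 to -0.22, and the tubulin median stayed 0.30 above it. The cause of the other shifts was not tested. Among single probes no called value changed sign. Counted over every pair of a probe and an alternative, sign changes without a call numbered 76 in the first comparison and 60 in the second. Sign and call both stayed the same in 1118 and 850 pairs. Those of the second comparison include the runs without a GFP-off array, which could not differ. With the sign kept, a call was gained in 22 and 16 pairs. A call was lost in 0 pairs of the first comparison, where no member was called, and in 92 of the second. Brightness limits 22 of the 66 probes, which were below background on at least 1 array.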
